A study of Mus musculus and Homo sapiens with 4 samples.

Results

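This account concerns 10 genes that mark epithelial and mesenchymal cells: the classical cadherins CDH1, CDH2 and CDH3, the epithelial genes EPCAM and ESRP1, the mesenchymal filament gene VIM, and the transcription factors ZEB1, ZEB2, SNAI2 and TWIST1. They were looked up by gene symbol among 25932 entries of VCaP and VCaP ERα cells, and 9 of the 10 symbols were found, each on 1 entry. No entry carried ESRP1, and the values given for it are those of the entry RBM35A, an older symbol of the same gene. VCaP is a prostate cancer cell line, sequenced at passage 5 to 6, and VCaP ERα is the same line made to overexpress oestrogen receptor alpha (ERα), sequenced at passage 4 to 5. Both were grown in DMEM with serum, and the labels name no hormone treatment. Whether VCaP ERα was a pool or a single clone, and whether the VCaP control carried an empty vector, is not given in the sources used here. Each condition has 1 library, so no difference below has a replicate check, and no test was made.

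Epithelial cells are held together by E-cadherin (CDH1), whose cytoplasmic tail binds catenins that link it to actin. In an epithelial-mesenchymal transition, factors such as ZEB1, ZEB2, SNAI2 and TWIST1 repress CDH1 and other epithelial genes, while N-cadherin (CDH2) and vimentin (VIM) come up. In prostate cancer this switch is studied for its link with invasion.

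The values are RPKM, which are reads relative to entry length and library size, so levels can be compared between genes. A log2 ratio here is log2 of (VCaP ERα RPKM + 1) over (VCaP RPKM + 1), which understates differences between low values. ESR1, the gene of the overexpressed receptor, had 15.7 RPKM in VCaP against 209 RPKM in VCaP ERα, with a log2 ratio of 3.65. The 9754 entries that reached 1 RPKM in each library had log2 ratios with a median of -0.59 and quartiles of -1.33 and 0.13, so a log2 ratio of 0 lies above the middle of the expressed entries. The label VCaP was checked against 12 prostate luminal markers. In the library so labelled they ranged from 0 to 8.18 RPKM (median 0.127, sum 20.4), and all 12 were higher in VCaP ERα, with 3.16 to 694 RPKM (median 142, sum 2287). KLK4 and FOLH1 were listed at 0 in the VCaP library. Of 12 luminal breast markers, 10 were higher in the VCaP library (sum 4319 RPKM against 1063 RPKM), where 71.9% of all entries of at least 10 RPKM in a library were also higher. TFF1 (1596 RPKM against 6.998 RPKM) and KRT19 (1625 RPKM against 5.44 RPKM) were among the 10. AGR2 was lower in the VCaP library (114 RPKM against 727 RPKM), and SCGB2A2 was listed at 0 there. A difference of cell identity and the overexpression of ERα cannot be told apart in this design, and every comparison below rests on that library.

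Of the 4 epithelial members, 4 reached 1 RPKM in VCaP and 3 in VCaP ERα, where CDH3 was below it. Of the 6 mesenchymal members, SNAI2 reached 1 RPKM in VCaP, at 1.04 RPKM, and 0 did so in VCaP ERα. Together CDH1, CDH3, EPCAM and RBM35A summed to 229 RPKM in VCaP against 117 RPKM in VCaP ERα. Together CDH2, VIM, ZEB1, ZEB2, SNAI2 and TWIST1 summed to 1.69 RPKM and 1.07 RPKM. Among the epithelial genes CDH1 and CDH3 were lower and EPCAM was higher in VCaP ERα. Of the 10 genes, 0 had a log2 ratio above 2 and 2 had a log2 ratio below -2. Among all entries 2.27% (588) were above 2 and 6.56% (1701) were below -2, or 1238 and 868 entries once the median log2 ratio of the expressed entries was subtracted. Among the 5527 entries of at least 10 RPKM in a library, without that subtraction, 5.79% were above 2 and 24.1% below -2. The 4 epithelial members belong to these well expressed entries, and the 2 below -2 were among those 4. The 6 mesenchymal members were too low to pass -2 on this scale.

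**Figure D1:**
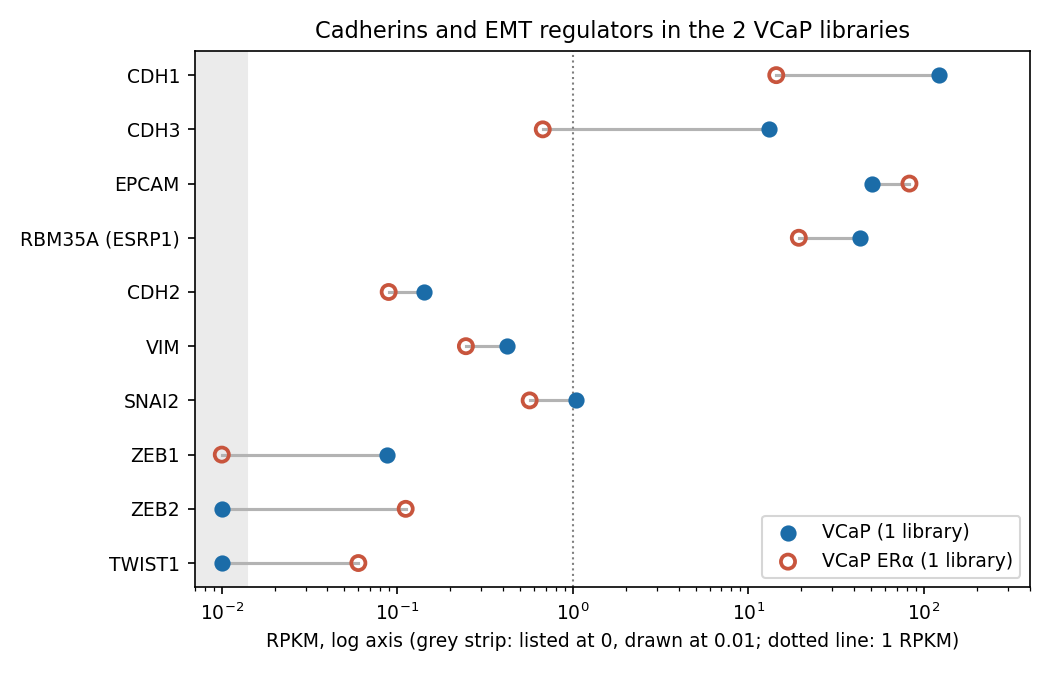
RPKM (log axis) of the 10 genes in VCaP (filled) and VCaP ERα (open), 1 library each, with a grey strip for values listed at 0 and a dotted line at 1 RPKM. The 4 epithelial genes sit at 13.2 RPKM or above in VCaP, whereas among the 6 mesenchymal genes only SNAI2 in VCaP, at 1.04 RPKM, passes 1 RPKM.

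CDH1 encodes E-cadherin, the main cadherin of epithelial adherens junctions. Its entry (chromosome 16, 67328696 to 67426945, as deposited, on the human build hg18 of the submitters' processing notes) had 122 RPKM in VCaP against 14.4 RPKM in VCaP ERα. The log2 ratio was -2.99, and the value was 8.45-fold lower in VCaP ERα. CDH1 was the highest of the 10 genes in VCaP, above 98.8% of all entries, and it came after EPCAM and RBM35A in VCaP ERα, where it still exceeded 91.8% of entries. It was lower but remained well expressed.

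CDH3 encodes P-cadherin, a classical cadherin of basal epithelial cells in many tissues. Its entry (chromosome 16, 67235652 to 67290458) had 13.2 RPKM in VCaP against 0.673 RPKM in VCaP ERα, with a log2 ratio of -3.08. The value was 19.5-fold lower in VCaP ERα and passed from the expressed range to below 1 RPKM. By log2 ratio CDH3 ranked 523 and CDH1 ranked 572 from the lowest of the 25932 entries. Of 6 basal epithelial markers, 4 were lower and 2 higher in VCaP ERα, beside 64.0% of all entries of at least 1 RPKM in a library that were lower there. The 4 had log2 ratios below -2 (2 after centring on the median), among them KRT17 (38.9 RPKM in VCaP against 0.774 RPKM in VCaP ERα) and TP63 (3.79 RPKM and 0.0400 RPKM). Their summed level was 58.7 RPKM in VCaP against 4.09 RPKM in VCaP ERα. The 2 higher ones were low: KRT5 had 0.0259 RPKM against 0.623 RPKM and KRT14 had 0 against 1.19 RPKM, in the same order of libraries. The part of basal-type cells in the value of CDH3 was not tested.

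CDH1 and CDH3 are neighbours, with 38.2 kb between their entries, and the genes around them also had lower values. Of the 34 other entries of at least 1 RPKM in a library whose midpoint lies within 1 Mb of that of CDH1, 32 had a log2 ratio below 0 and 9 a log2 ratio below -2, with a median of -1.66. CDH3 itself is counted among the 34, the 32 and the 9. Around CDH3, with CDH1 counted, 32 of 34 such entries were below 0 and 7 below -2, with a median of -1.50. This window overlaps that of CDH1 for most of its length, so its counts are not a separate result. Among all entries of at least 1 RPKM in a library, 64.0% had a log2 ratio below 0 and 12.2% one below -2. RBM35B, an older symbol of ESRP2, lies in the same stretch (66819951 to 66827637) and had 41.2 RPKM in VCaP against 6.51 RPKM in VCaP ERα. This gene was singled out after its values were seen. Around EPCAM 9 of 12 such entries were below 0 and 0 were below -2. Around RBM35A 11 of 15 were below 0 and 1 below -2, and around VIM 3 of 7 and 2. The windows of the other members held at most 5 such entries. These windows are too small to set a contrast with that of CDH1. Copy number was not measured, and its part in the values of CDH1 and CDH3 was not tested.

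CDH2 encodes N-cadherin, the classical cadherin of neural and mesenchymal cells. Its entry (chromosome 18, 23784933 to 24011189) had 0.142 RPKM in VCaP against 0.0893 RPKM in VCaP ERα, with a log2 ratio of -0.07. Within each library, CDH1 was 858-fold above CDH2 in VCaP and 161-fold above it in VCaP ERα. Such within-library ratios do not depend on how the libraries were scaled. Both divide by CDH2 values near 0 in libraries of unknown depth, so their size and the difference between them are uncertain. Of 20 further cadherins found, 0 passed a log2 ratio of 2 in either direction, and the median log2 ratio was 0.14. Among all entries 2.27% were above 2 and 6.56% below -2. With a pseudocount of 0.1, 5 of the 20 were above 2 and 2 below -2, beside 4238 and 2958 of the 25932 entries. Of the 20, 17 were under 1 RPKM in both libraries and could not pass with a pseudocount of 1. The exceptions were CDH24 (2.81 RPKM in VCaP against 0.338 RPKM in VCaP ERα), CDH18 (1.49 RPKM and 0.0568 RPKM) and CDH4 (listed at 0 and 1.18 RPKM).

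EPCAM encodes an epithelial cell adhesion molecule that does not belong to the cadherins. Its entry (chromosome 2, 47425801 to 47467661) had 50.7 RPKM in VCaP against 82.6 RPKM in VCaP ERα, with a log2 ratio of 0.69. EPCAM thus was higher in VCaP ERα, by 1.63-fold, while 71.9% of entries of at least 10 RPKM in a library were lower there. The order of the leading epithelial genes exchanged: CDH1 was 2.40-fold above EPCAM in VCaP, and EPCAM was 5.74-fold above CDH1 in VCaP ERα.

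ESRP1, listed as RBM35A, encodes an RNA-binding protein that sets epithelial splice forms of genes such as FGFR2 and CD44. Its entry (chromosome 8, 95722540 to 95788870) had 43.3 RPKM in VCaP against 19.3 RPKM in VCaP ERα, with a log2 ratio of -1.12. Relative to the median shift of -0.59 its log2 ratio was -0.53, between the quartiles of the expressed entries. It was the second highest of the 10 genes in VCaP ERα. Its paralog RBM35B was at a like level in VCaP, with a ratio of RBM35A to RBM35B of 1.05, whereas in VCaP ERα RBM35A was 2.97-fold higher.

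**Figure D2:**
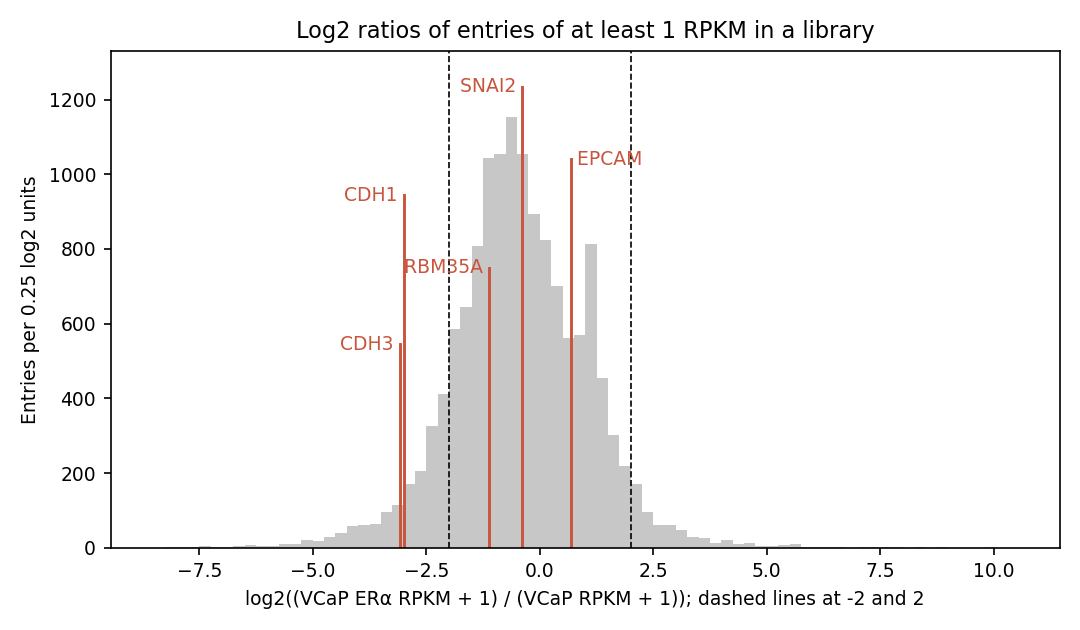
Histogram of log2 ratios (VCaP ERα over VCaP, RPKM plus 1) of the 13954 entries of at least 1 RPKM in a library, in bins of 0.25, with red lines at the 5 of the 10 genes that are among them. CDH3 (-3.08) and CDH1 (-2.99) lie left of the dashed line at -2, RBM35A (-1.12) and SNAI2 (-0.38) lie in the main body, and EPCAM (0.69) lies on its right side.

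VIM encodes vimentin, the intermediate filament of mesenchymal cells. Its entry (chromosome 10, 17310476 to 17319598) had 0.420 RPKM in VCaP against 0.246 RPKM in VCaP ERα, below 1 RPKM in both, where 48.8% and 30.7% of all entries were lower still. Its log2 ratio was -0.19.

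The 4 transcription factors that repress epithelial genes were low or listed at 0. SNAI2 (SLUG; chromosome 8, 49992794 to 49996541) was the highest of them, with 1.04 RPKM in VCaP against 0.567 RPKM in VCaP ERα. ZEB1 (chromosome 10, 31647430 to 31858130) had 0.0873 RPKM in VCaP and was listed at 0 in VCaP ERα. The other ZEB factor, ZEB2 (chromosome 2, 144862053 to 144994401), was listed at 0 in VCaP and had 0.112 RPKM in VCaP ERα. TWIST1 (chromosome 7, 19121616 to 19123820) was likewise listed at 0 in VCaP and had 0.0600 RPKM in VCaP ERα. The depth of the libraries is unknown, and 8757 entries were listed at 0 in VCaP against 3607 in VCaP ERα, so a passage between 0 and about 0.1 RPKM cannot be read as a difference. The signs of the log2 ratios of SNAI2 (-0.38), VIM (-0.19), ZEB1 (-0.12) and CDH2 (-0.07) turned positive once the median of the expressed entries was subtracted. That subtraction raises every entry by the same amount, so log2 ratios this near 0 turn positive whatever the gene. Quantile normalization left them negative (SNAI2 -0.59, VIM -0.51, ZEB1 -0.36 and CDH2 -0.37).

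**Figure D3:**
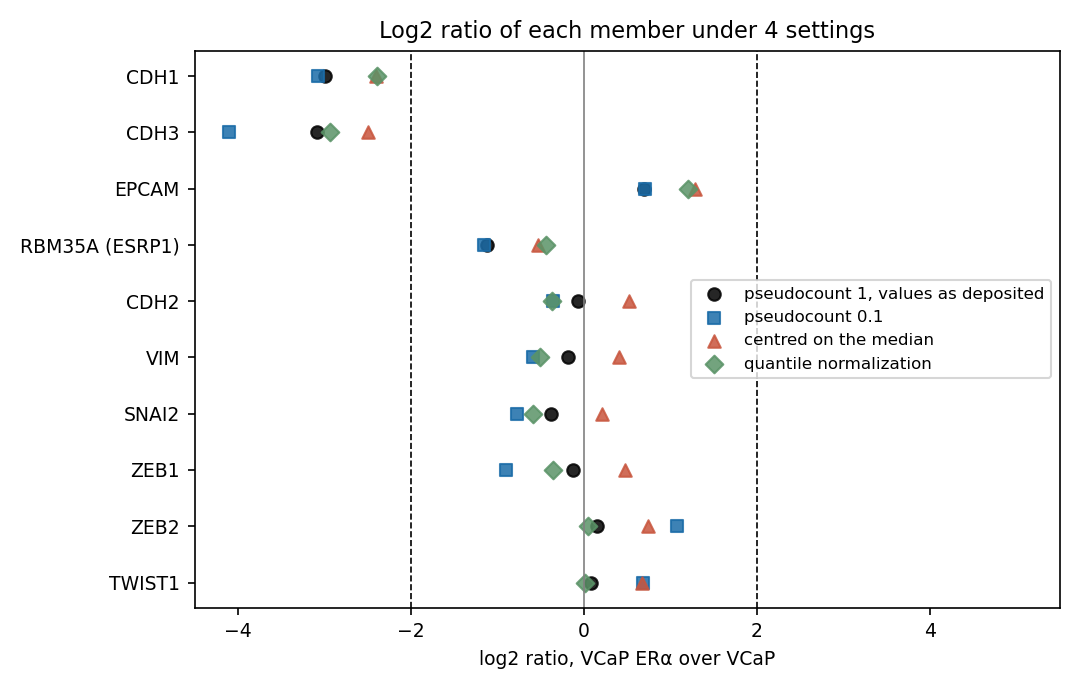
Log2 ratio of VCaP ERα over VCaP for each gene with a pseudocount of 1 on the deposited values (circles), a pseudocount of 0.1 (squares), centring on the median of expressed entries (triangles) and quantile normalization (diamonds). CDH1 and CDH3 stay left of -2 and EPCAM stays right of 0 under all 4, whereas SNAI2, VIM, ZEB1 and CDH2 lie right of 0 only after centring.

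The proteins that work with E-cadherin were described through lists of genes. Of 9 genes of the cadherin-catenin complex and its relatives, 7 were lower in VCaP ERα (6 after centring, where ARVCF changed sign). Before centring, 64.0% of entries of at least 1 RPKM and 71.9% of those of at least 10 RPKM in a library were also lower there. Of the 9, 2 had a log2 ratio below -2 (1 after centring or quantile normalization). The 2 are 22.2% of the 9, beside 24.1% of entries of at least 10 RPKM in a library. The median was -1.16 (-0.57 after centring), beside -0.97 before centring over all entries of at least 10 RPKM in a library. The difference was widest for JUP, which encodes plakoglobin (γ-catenin), with 242 RPKM in VCaP against 8.32 RPKM in VCaP ERα (log2 ratio -4.70). The p120-related PKP4 had 10.9 RPKM and 1.33 RPKM, with a log2 ratio of -2.35 that was -1.76 after centring. The core catenins differed less. CTNNA1 (α-catenin) had 117 RPKM and 43.3 RPKM, CTNNB1 (β-catenin) had 59.6 RPKM and 34.5 RPKM, and CTNND1 (p120-catenin) had 37.9 RPKM and 16.4 RPKM. In VCaP the ratio of CDH1 to CTNNB1 was 2.04, and in VCaP ERα it was 0.417. CTNNAL1, an α-catenin relative, was higher in VCaP ERα (5.10 RPKM and 17.1 RPKM), with a log2 ratio of 1.57 that reached 2.16 after centring on the median.

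Other junction genes, like CDH1 and EPCAM, went both ways. Of 19 nectin, tight junction and polarity genes, 9 had a log2 ratio below -2 and 2 above 2 (7 and 3 after centring), with a median of -1.82. These are 47.4% and 10.53% of the 19, beside 24.1% and 5.79% of entries of at least 10 RPKM in a library. PARD6B and LLGL2, which encode polarity proteins, were lower in VCaP ERα (116 RPKM against 2.64 RPKM, and 44.9 RPKM against 1.87 RPKM). CXADR, an adhesion receptor of tight junctions, and the nectin gene PVRL3 were higher (0.713 RPKM against 89.4 RPKM, and 1.36 RPKM against 39.5 RPKM). Of 11 desmosome genes, 3 were below -2 and 2 above 2 (2 and 3 after centring). These are 27.3% and 18.2% of the 11, beside the same 24.1% and 5.79%. Among entries of at least 1 RPKM in a library, 12.2% were below -2. Of the 11, 3 were under 1 RPKM in both libraries and could not pass either limit. The desmosomal genes PERP (385 RPKM in VCaP against 23.0 RPKM in VCaP ERα) and DSP (82.6 RPKM and 6.48 RPKM) were lower. The desmosomal cadherin genes DSC2 (1.14 RPKM and 19.7 RPKM) and DSC3 (listed at 0 and 3.56 RPKM) were higher.

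Among 19 further epithelial regulators and surface genes found, 11 (57.9%) had a log2 ratio below -2 and 1 (5.26%) above 2, beside 24.1% and 5.79% of entries of at least 10 RPKM in a library. After centring the counts were 10 and 1, and the median was -2.60 before and -2.01 after it. PRSS8, a membrane-anchored serine protease, was among those below -2, with 136 RPKM in VCaP against 4.40 RPKM in VCaP ERα. The exception above 2 was EHF, an epithelial ETS factor, with 0.801 RPKM in VCaP against 38.0 RPKM in VCaP ERα. OVOL2, a repressor of ZEB1, was also higher (4.26 RPKM and 7.96 RPKM). Each of the 19 reached 1 RPKM in at least 1 library.

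Of 24 mesenchymal and matrix genes, 13 were under 1 RPKM in both libraries and so could not pass a log2 ratio of 2 in either direction. Of the 24, 0 had a log2 ratio above 2 and 2 had a log2 ratio below -2, or 4 and 4 with a pseudocount of 0.1. The median was 0.00, and 0.59 after centring. FN1, which encodes fibronectin, was lower in VCaP ERα (5.65 RPKM and 0.0723 RPKM), as was S100A4 (12.5 RPKM and 1.23 RPKM). COL6A1 was higher (0.315 RPKM and 2.41 RPKM). The 24 values ranged from 0 to 31.3 RPKM in VCaP and from 0 to 22.1 RPKM in VCaP ERα. Of 14 further transcription factors of the transition found, 0 were above 2 and 3 below -2, and SNAI1 had 0.402 RPKM in VCaP against 0.334 RPKM in VCaP ERα. Below -2 were 21.4% of these 14 and 8.33% of the 24, beside 12.2% of entries of at least 1 RPKM in a library. Of the 14, 7 were under 1 RPKM in both libraries and could not pass. The 3 (2 after centring) were ID3 (71.3 RPKM and 1.70 RPKM), ID1 (95.9 RPKM and 3.71 RPKM) and FOXC1 (6.21 RPKM and 0.384 RPKM). ID1 and ID3 encode inhibitors of bHLH factors and are targets of BMP signalling, and FOXC1, a forkhead factor, was named after its values were seen.

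Signalling by TGF-β, an inducer of the transition in epithelial cells, was represented by 13 genes, of which 0 were above 2 and 4 were below -2 (1 and 3 after centring, the 1 being SMAD4). That is 30.8% below -2, beside 12.2% of entries of at least 1 RPKM and 24.1% of those of at least 10 RPKM in a library. Of the 13 genes, 1 was under 1 RPKM in both libraries, and not all of the rest reached 10 RPKM. The receptor gene TGFBR2 had 17.3 RPKM in VCaP against 0.435 RPKM in VCaP ERα, and the signal transducer SMAD3 had 47.6 RPKM and 0.752 RPKM. SMAD4, the common partner of the SMADs, was higher (3.01 RPKM and 14.2 RPKM). Of 12 common reference genes, 1 (8.33%) was below -2 and 0 were above 2 (1 and 1 after centring, B2M being above). Before centring, 24.1% of entries of at least 10 RPKM in a library were below -2 and 5.79% above 2. Among those of at least 1 RPKM, 12.2% were below -2. ACTB, which encodes β-actin, had 2334 RPKM in VCaP against 127 RPKM in VCaP ERα. B2M (226 RPKM and 804 RPKM) and HPRT1 (4.64 RPKM and 13.2 RPKM) were higher and GAPDH (1237 RPKM and 352 RPKM) was lower, so these genes offered no common scale.

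**Figure D4:**
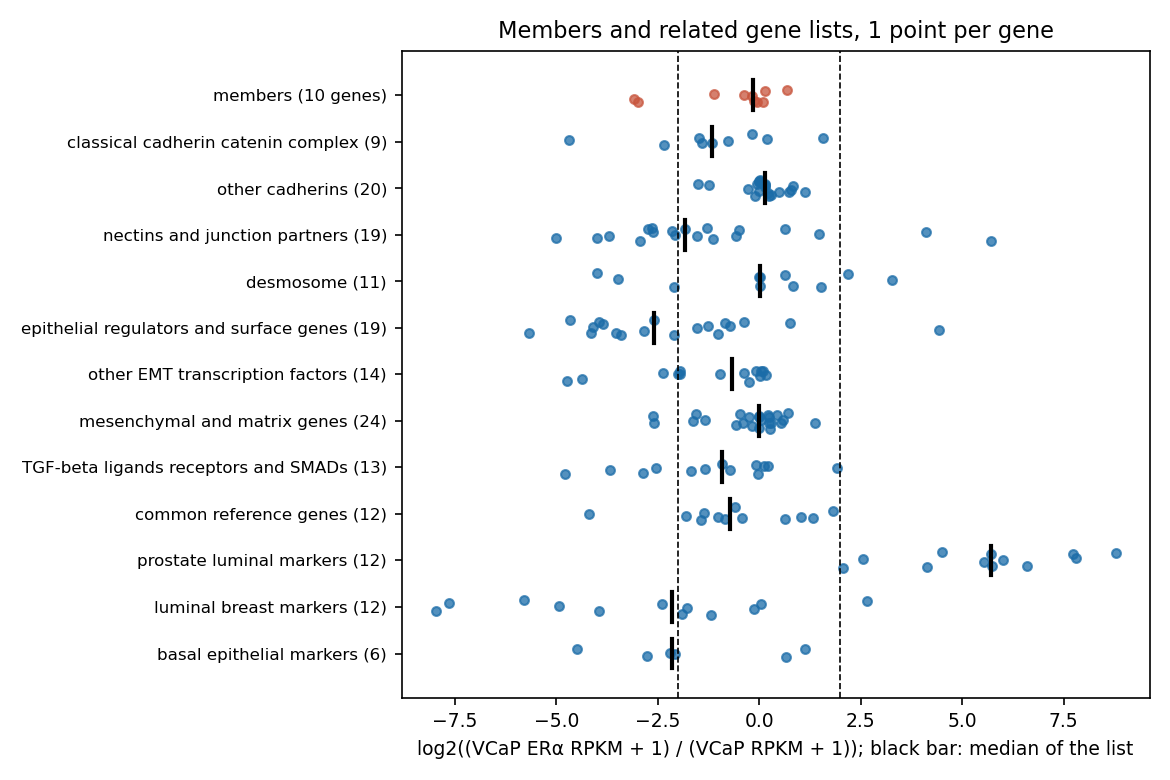
Log2 ratio (VCaP ERα over VCaP, RPKM plus 1) of the 10 genes (red) and of the genes of each list (blue), 1 point per gene, with a black bar at each median and dashed lines at -2 and 2. The list medians run from -2.60 for epithelial regulators to 5.72 for prostate luminal markers, and that of mesenchymal and matrix genes is 0.00.

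Mouse embryonic fibroblasts (MEFs) gave the levels of the same genes in a mesenchymal cell. The MEFs were from E13.5 embryos of wild-type and NEAT1 knockout (KO) C57BL/6 mice at passage 2 to 3, with 1 poly-A library each. They form another table of another species and library type, so levels are set beside those of the VCaP libraries and not compared with them. Neat1 itself had 29.5 RPKM in wild type against 2.01 RPKM in KO. All 10 orthologs were found. In each MEF library the 6 mesenchymal genes lay above the 4 epithelial ones, whereas in each human library the 4 lay above the 6. Cdh1 and Esrp1 were listed at 0 in both libraries, and Epcam was listed at 0 in wild type and had 0.0162 RPKM in KO. Vim had 3151 RPKM in wild type against 2448 RPKM in KO. The repressors were expressed: Twist1 had 23.6 RPKM and 20.3 RPKM, Snai2 had 18.2 RPKM and 15.2 RPKM, Zeb1 had 14.7 RPKM and 13.4 RPKM, and Zeb2 had 9.80 RPKM and 11.8 RPKM. Cdh3 was also present (4.03 RPKM and 5.27 RPKM), unlike the other epithelial genes.

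Between the MEF libraries 0 of the 10 orthologs passed a log2 ratio of 2 in either direction, where 0.223% of all 23329 entries were above 2 and 0.0171% below -2. Cdh2 had 22.1 RPKM in wild type against 10.95 RPKM in KO. Its log2 ratio of -0.95 was the lowest of the 10, and the other 9 lay within 0.5 of 0. Among these 9, Cdh1, Esrp1 and Epcam were at or near 0 RPKM in both libraries and could not differ on this scale. In the direction of Cdh2, 7.14% of the 11463 entries of at least 1 RPKM in a library had a log2 ratio below -0.5.

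**Figure D5:**
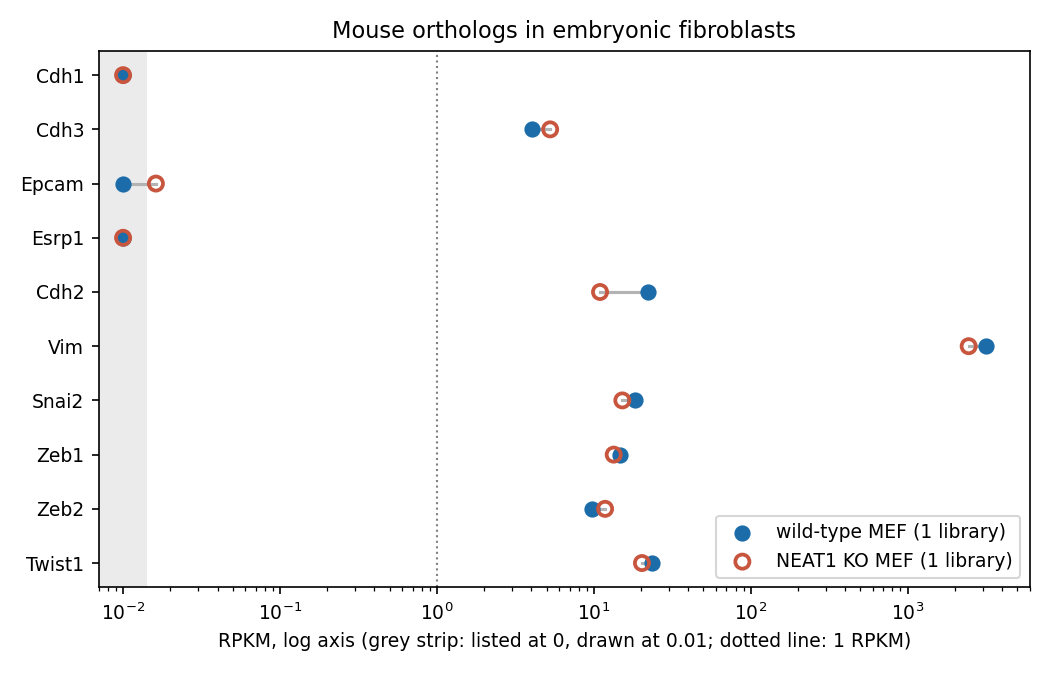
RPKM (log axis) of the mouse orthologs in wild-type (filled) and NEAT1 KO (open) MEFs, 1 library each, with a grey strip for values listed at 0 and a dotted line at 1 RPKM. Vim leads with 3151 RPKM and 2448 RPKM, the repressors lie between 9.80 and 23.6 RPKM, and Cdh1, Esrp1 and Epcam are at or near 0.

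ZEB and SNAI proteins bind the E-box CACCTG, which reads CAGGTG on the other strand. The mouse promoter windows of RefSeq (GRCm38.p6, the same build as the mm10 of the mouse files) held Epcam, Vim, Zeb2 and Twist1 among the 10 orthologs, and the 250 bases before each start site were searched for both spellings. Epcam and Vim are shown because, of these, they were the opposite ends in the MEFs: Epcam was near 0 and Vim led. E-boxes are in capitals. The Epcam window is chr17:87635729-87635978 and the Vim window chr2:13574061-13574310, both on the plus strand and upstream of the gene, outside its exons.
Epcam: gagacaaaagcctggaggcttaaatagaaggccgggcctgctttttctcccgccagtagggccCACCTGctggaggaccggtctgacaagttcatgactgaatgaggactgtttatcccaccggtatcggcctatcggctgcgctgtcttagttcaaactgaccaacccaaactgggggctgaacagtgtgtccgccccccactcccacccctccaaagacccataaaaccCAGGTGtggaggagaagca
Vim: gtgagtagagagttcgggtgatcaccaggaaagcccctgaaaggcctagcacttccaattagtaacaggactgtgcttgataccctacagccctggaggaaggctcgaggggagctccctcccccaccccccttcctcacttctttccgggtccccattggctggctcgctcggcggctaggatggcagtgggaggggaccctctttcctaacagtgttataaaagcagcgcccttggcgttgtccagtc
The Epcam window held an E-box on each strand, which begin 187 and 19 bases before the start site, and the Vim, Zeb2 and Twist1 windows held 0. Of 32851 mouse promoter windows, 17.2% held at least 1 E-box and 2.06% at least 2. These are matches of letters, and no binding was measured here.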

How the data were processed

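RNA was sequenced from VCaP and VCaP ERα cells (ribosomal RNA removed, strand kept) and from wild-type and NEAT1 KO MEFs (poly-A). The authors deposited 1 RPKM value per entry and library, and no normalization between libraries is stated. The submitters' processing notes name CASAVA 1.8 and the builds hg18 and mm10. The counting tool is not given in the sources used here. Coordinates of human entries were printed as deposited, and exons and GC content were not examined.

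Depth is unknown. For 2146 low entries (above 0 but under 0.5 RPKM in each VCaP library) the ratio found most often, 0.974, occurred in 38 of them, which does not establish relative depth, so no interval or detection limit was computed.

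Log2 ratios used a pseudocount of 1 and every entry, and a ratio past 2, the threshold of the study, was counted in either direction. A symbol was represented by its entry of highest mean RPKM. With 1 library per group no test was made. Besides the 10 genes and ESR1, the genes named are at most 2 at either end of each gene list whose higher value is at least 1 RPKM, any gene of the catenin and cell type lists, and SNAI1, FOXC1 and RBM35B, chosen after their values were seen. An item that this rule would name is not reported here. The members and gene lists were chosen with earlier results of these data known. Alternative settings comprised another pseudocount (0.1), a floor of 1 RPKM, centring on the median, quantile normalization, averaged entries and a threshold of 1. Scripts were tested on simulated data. The software was Python 3.11.15 with pandas 2.3.3, numpy 2.4.6 and, for the plots, matplotlib 3.10.9.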

Additional observations from a re-analysis of the deposited data

How the results depend on the processing

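With 1 library per condition no replicate could be left out, and no fold here has a spread behind it. No paired analysis was possible because each group has 1 library and the labels give no replicate numbers. The counts of 0 genes above 2 and 2 below -2 held under the other pseudocount, the minimum of 1 RPKM, the centring, the quantile normalization and averaged entries, and with a threshold of 1 the counts were 0 and 3. A log2 ratio was taken as moved past 0.585 (1.5-fold). Centring gave CDH1 -2.40, CDH3 -2.49, EPCAM 1.28, RBM35A -0.53, CDH2 0.52, VIM 0.40, ZEB1 0.47, ZEB2 0.74, SNAI2 0.21 and TWIST1 0.67. Quantile normalization gave CDH1 -2.39 and RBM35A -0.43. The pseudocount of 0.1 gave CDH3 -4.10, ZEB1 -0.91, ZEB2 1.08 and TWIST1 0.68. The minimum of 1 RPKM removed CDH2, VIM, ZEB1, ZEB2 and TWIST1. All entries above 2 numbered 588, and 4238, 1238, 1003 and 2375 under the pseudocount, centring, quantile normalization and the threshold of 1. Those below -2 numbered 1701, and 2958, 868, 997 and 4786 in the same order. Of the values for lists and mouse orthologs, 191 kept within these limits and 50 moved. The cause of these shifts was not tested.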
